A study of Mus musculus with 16 samples.

Results

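The miR-221 and miR-222 cluster is a pair of microRNA (miRNA) genes on the mouse X chromosome, and 3 of its mature products were measured here: mmu-miR-221-3p, mmu-miR-222-3p and mmu-miR-222-5p. They were found by their systematic names among the non-control probes of the array, and make up 3 of its 1247 mouse miRNAs. All 3 were among the 231 miRNAs tested, for which the scanner software had to call the miRNA detected throughout 1 or more of the groups. The samples were RAW264.7 cells, an established mouse macrophage-like line transformed with Abelson murine leukaemia virus, so that every group is 1 cell line in culture. In the group Th2_IL33, cells spent 48 h with 10 ng per ml of the Th2 cytokines IL-4 and IL-13 (IL for interleukin). They were then washed and kept for 4 h with recombinant mouse IL-33 at 20 ng per ml. The group Media_IL33 had the same IL-33 after 48 h in medium alone. The group Th2 had the cytokines without IL-33, and the group Media had neither. Each group had 4 arrays, 1 from each of 4 independent experiments. The question of the series is whether macrophages in a Th2 environment, as in allergy, respond differently to IL-33, which injured tissue cells release.

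A miRNA gene gives a hairpin RNA that is cut into a duplex, and one strand of the duplex (the guide) is kept more often in the silencing complex than its partner (the passenger). The strand from the 5′ side of the hairpin is called 5p and the other 3p. For both miR-221 and miR-222 the 3p strand is the usual guide, and it is known to repress the cell cycle inhibitor p27 (Cdkn1b) and the receptor Kit. In human tumour lines the pair is induced through NF-kB and AP-1, transcription factors that IL-33 receptor signalling also activates. In mouse macrophages the pair is known to build up under prolonged bacterial lipopolysaccharide and to repress Brg1 (Smarca4), a chromatin remodelling subunit.

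Both 3p guides carry one seed, the stretch at bases 2 to 8 that pairs with targets. It is in capitals in the mature sequences below, which are shown because a shared seed makes the 2 guides alike in target pairing. The coordinates are of build GRCm38.p6, on the minus strand, at chrX:19146307-19146329 for miR-221-3p and chrX:19146901-19146923 for miR-222-3p, and the sequences are RefSeq's.
mmu-miR-221-3p: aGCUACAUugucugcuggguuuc
mmu-miR-222-3p: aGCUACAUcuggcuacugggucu
The first 8 bases are identical, and 11 of the 23 positions match when the 2 are aligned from the 5′ end. Of the 1679 mature mouse miRNAs in the RefSeq table, 3 carry this seed. The other one is miR-1928, of chromosome 1, which was on the array and was detected on 0 of 16 arrays. RefSeq held a mature sequence for 2 of the 3 members.

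The miR-222 hairpin is shown because both of its arms were measured. It lies at chrX:19146893-19146971, on the minus strand. Capitals mark, from left to right, the stretch on the 5p arm read by the longest miR-222-5p probe, and mature miR-222-3p.
Mir222: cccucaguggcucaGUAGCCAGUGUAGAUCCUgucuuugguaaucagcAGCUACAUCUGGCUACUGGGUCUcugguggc
The hairpin is 79 bases long, and 504 bases separate it from the 95-base hairpin of Mir221 at chrX:19146294-19146388. No annotated gene spans both hairpins. The nearest annotated neighbours are Gm14636, a long noncoding RNA gene 9500 bases away on the Mir222 side, and Gm5383, a pseudogene 203060 bases away on the Mir221 side.

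The brightest probe of each member is given below as a DNA sequence, 5′ to 3′, because the probes decide which bases were read. Capitals mark bases that pair with the seed in the 2 guide probes, and no seed is marked in the miR-222-5p probe.
miR-221-3p probe: gaaacccagcagacaATGTA
miR-222-3p probe: acccagtagccagA
miR-222-5p probe: aggatctacactggctac
The 2 guides are told apart by their 3′ parts, since the probes reach 5 seed bases of miR-221-3p and 1 seed base of miR-222-3p. The longest run that any of these probes shares with the other hairpin is 6 bases for the 3p probes and 7 bases for the 5p probes. The other probes of each member are shorter versions of these, of 19 bases for miR-221-3p, 13 bases for miR-222-3p, and 16 and 17 bases for miR-222-5p.

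The values are relative signals. Each probe's spot intensities were averaged, and probes for the same miRNA were added up. A relative signal of 1 is the 75th percentile of an array, taken over the 178 miRNAs that every array detected. The arrays had 206 to 256 detected miRNAs, and arrays of 1 group correlated with a median r of 0.985 over the tested miRNAs, down to 0.811 for the least alike pair. The myeloid markers miR-223-3p, miR-142a-3p and miR-142a-5p were detected on all 16 arrays, and 17 of 18 markers of other cell types on none (the other, the muscle marker miR-206-3p, was detected on 11). Summed relative signals of the 18 lay between 0.635 and 0.663 in Th2_IL33, 0.649 and 0.666 in Th2, 0.642 and 0.673 in Media_IL33, and 0.661 and 0.679 in Media. These sums hold little beyond the floor of 0.0353, at which the 17 lay on every array, and miR-206-3p. The arrays lay on 2 slides. Slide 2 held all 4 Th2_IL33 arrays, 1 Th2, 2 Media_IL33 and 1 Media array, and slide 1 held the other 3 Th2, 2 Media_IL33 and 3 Media arrays. A comparison is therefore also given with the slide as a block and within a slide. In RNA from a whole culture, more cells with a miRNA and more of it per cell cannot be told apart.

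All 3 members were detected, and well above background, on 16 of 16 arrays. The partner strand of the miR-221 guide, miR-221-5p, was detected on 0 of 16. Its 2 probes averaged -1.35 and 5.29 intensity units, and those of miR-221-3p 528 and 877. The miR-222-3p probes averaged 159 and 237 units, and the 3 miR-222-5p probes 3.81, 11.8 and 60.6 units. Only the longest miR-222-5p probe was well above background, on 16 of 16 arrays, and it carried 79.5% of the summed signal of that strand. Probes differ in binding, so levels are compared below between groups and not between strands.

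With IL-33, miR-222-5p, the partner strand of the miR-222 guide, rose. Averaged over both growth conditions it was 1.66-fold higher with IL-33 (95% interval 1.37 to 2.03), a log2 difference of 0.74 ± 0.13 (SE) with an adjusted p of 0.00376 in limma. It was higher in 8 of 8 pairs of arrays from the same experiment, as were 3.46% of the tested miRNAs. The 2 guides did not pass the test in this or any other comparison. So 1 of the 3 members was called in the IL-33 average, where 2.16% of the 231 tested miRNAs were called, all of them higher. Differences on the log2 scale carry their standard error throughout, and p values were adjusted by Benjamini-Hochberg across all tested miRNAs of a comparison, with a threshold of 0.05.

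In Th2-grown cells, miR-222-5p had relative signals of 0.203, 0.223, 0.169 and 0.188 in the 4 Th2_IL33 arrays, against 0.129, 0.131, 0.107 and 0.0803 in the 4 Th2 arrays (replicates 1 to 4). Every Th2_IL33 array lay above every Th2 array. The mean was 0.196 ± 0.0229 in Th2_IL33 and 0.112 ± 0.0237 in Th2 (SD, n = 4 each). The log2 difference of 0.82 ± 0.19, which is 1.77-fold, had an adjusted p of 0.0338 in limma. Such a separation was seen for 3.9% of the tested miRNAs, and 1.73% were called. Within the experiments the signal with IL-33 was 1.58, 1.70, 1.57 and 2.34 times that without it, and the largest of these, of experiment 4, is the only pair of the 4 with both arrays on 1 slide. This call lies close to the threshold, and it was kept in 16 of 31 alternatives. It was lost with background correction by normexp (0.21, adjusted p = 0.278 in limma), after quantile normalization (0.76, 0.568) and in the authors' processed table (0.84, 0.947). The percentile over all miRNAs (0.93, 0.208) and testing with no filter (0.82, 0.254) lost it too. It was lost with the experiment as a block (adjusted p = 0.0578), and in 7 of the 16 refits that each left out 1 array: Media 2 (adjusted p = 0.0513), Th2 3 (0.111), Th2 4 (0.141), Media_IL33 3 (0.0526), Th2_IL33 1 (0.119), Th2_IL33 2 (0.142) and Th2_IL33 4 (0.0832), with log2 differences of 0.67 to 0.84. With the slide as a block the log2 difference was 0.97 (adjusted p = 0.0417), and within slide 2 it was 1.28 (adjusted p = 0.0887), with a single Th2 array on that slide.

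In medium-grown cells, miR-222-5p had relative signals of 0.131, 0.128, 0.152 and 0.162 in the 4 Media_IL33 arrays, against 0.107, 0.0967, 0.0631 and 0.106 in the 4 Media arrays. Here too the groups did not overlap, as for 2.16% of the tested miRNAs. The mean was 0.144 ± 0.0166 in Media_IL33 and 0.0932 ± 0.0206 in Media (SD, n = 4 each), and the log2 difference of 0.65 ± 0.19 did not pass the test across all miRNAs (adjusted p = 0.179 in limma). The pairs of experiments 1 to 4 gave 1.22, 1.33, 2.41 and 1.54 times the signal with IL-33, and the lowest Media array, replicate 3, belongs to the largest of these. With the slide as a block the log2 difference was 0.70 (adjusted p = 0.126). It was 0.86 within slide 1 and 0.27 within slide 2 (adjusted p = 0.444 and 0.479). With blocks for both slide and experiment it passed (0.74, adjusted p = 0.0413).

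The average over both growth conditions held as a call in each of the 16 refits without 1 array, with adjusted p values of 0.00267 to 0.0120. It was 0.83 with the slide as a block (adjusted p = 0.0063), and 0.77 within slide 2 (adjusted p = 0.0733). It did not pass when the background was corrected by normexp (0.13, adjusted p = 0.498), after quantile normalization (0.68, 0.117) or in the authors' processed table (0.73, 0.185).

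**Figure D1:**
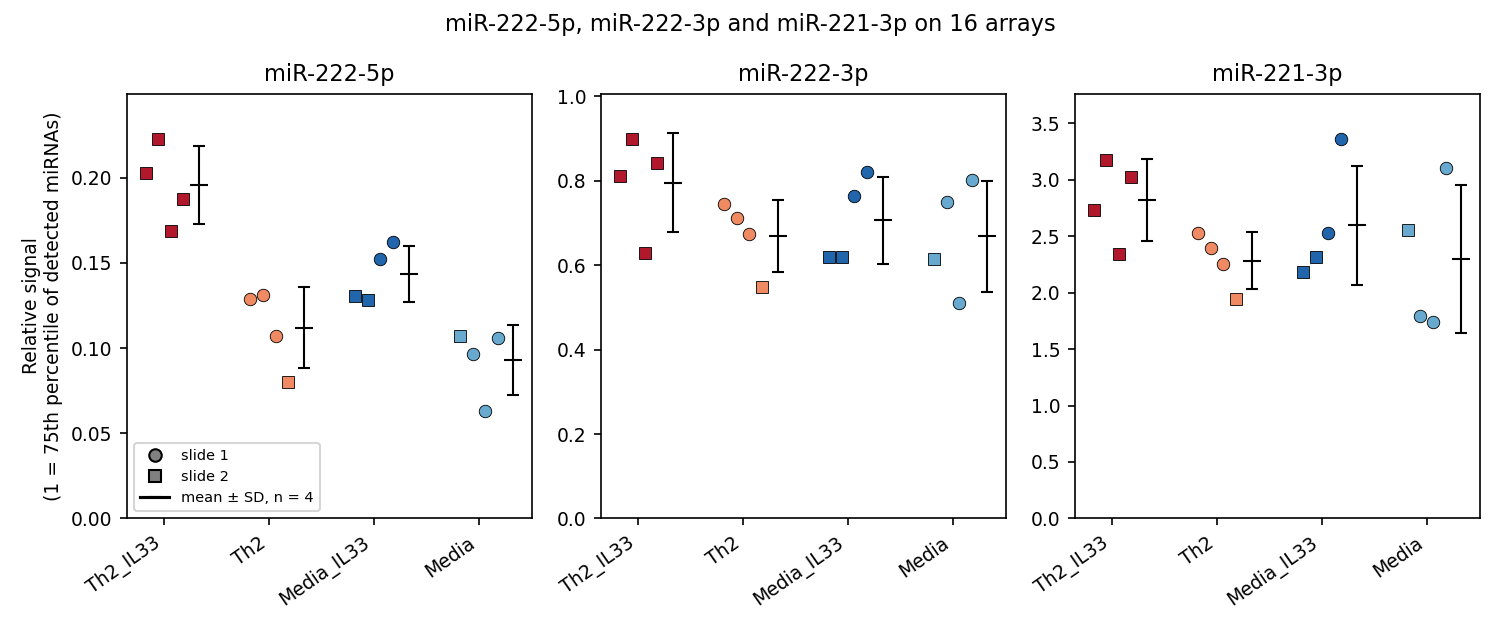
Relative signal of miR-222-5p, miR-222-3p and miR-221-3p (vertical axes, 1 = the array's 75th percentile of detected miRNAs, each panel with its own range from 0) in the 4 groups, with 1 point per array and replicates 1 to 4 from left to right in a group. Circles are slide 1 and squares slide 2, and the black marks are mean ± SD (n = 4). The miR-222-5p arrays with IL-33 lie above those without it in the same growth condition, and the groups of the 2 guides overlap.

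The guide of the same hairpin, miR-222-3p, differed less. Its relative signals were 0.812, 0.899, 0.629 and 0.842 in Th2_IL33, against 0.744, 0.712, 0.674 and 0.548 in Th2. The groups overlap, and replicate 3 was lower with IL-33. In medium-grown cells it had 0.619, 0.620, 0.765 and 0.822 in Media_IL33, against 0.614, 0.750, 0.511 and 0.801 in Media, again overlapping. The log2 difference was 0.25 ± 0.17 in Th2-grown cells and 0.09 ± 0.17 in medium-grown cells, and the IL-33 average was 0.17 ± 0.12, with a 95% interval of -0.09 to 0.42 (limma, adjusted p = 0.997). It was higher in 6 of 8 pairs.

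miR-221-3p, the guide of the neighbouring hairpin, had relative signals of 2.73, 3.17, 2.35 and 3.02 in Th2_IL33, against 2.53, 2.40, 2.25 and 1.94 in Th2. In medium-grown cells it had 2.18, 2.31, 2.53 and 3.36 in Media_IL33, against 2.56, 1.79, 1.74 and 3.11 in Media. The groups overlap in both growth conditions, and the Media arrays spread most, with a coefficient of variation of 28.5%. The IL-33 average was 0.25 ± 0.14, with a 95% interval of -0.04 to 0.54 (limma, adjusted p = 0.997), and 7 of 8 pairs were higher with IL-33. The intervals of the 2 guides reach increases of 1.45-fold for miR-221-3p and 1.34-fold for miR-222-3p.

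With the slide as a block, the IL-33 averages of the 2 guides were 0.33 for miR-221-3p and 0.31 for miR-222-3p (adjusted p = 0.997 and 0.712). Within slide 2 they were 0.17 and 0.27 (adjusted p = 0.723 and 0.72). With blocks for both slide and experiment they were larger, 0.40 and 0.38 (limma, adjusted p = 0.422 and 0.0983), beside 0.93 for miR-222-5p (0.00218). In that fit miR-222-3p was 0.57 higher with IL-33 in Th2-grown cells (adjusted p = 0.116). The single probes of each guide differed by little: the IL-33 averages were 0.22 and 0.27 for the 2 miR-221-3p probes, and 0.15 and 0.18 for the 2 miR-222-3p probes. For miR-222-5p the longest probe gave 0.73, and the 2 shorter ones, well above background on 0 of 16 arrays, are not read singly. The longest had 69.8 to 101 intensity units in Th2_IL33, against 34.2 to 53.9 in Th2. It had 66.2 to 77.5 units in Media_IL33, against 31.8 to 53.1 in Media. The mean intensity of the 2333 probes that were detected on no array, a measure of the background, lay between -1.96 and -0.41 units over all arrays.

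**Figure D2:**
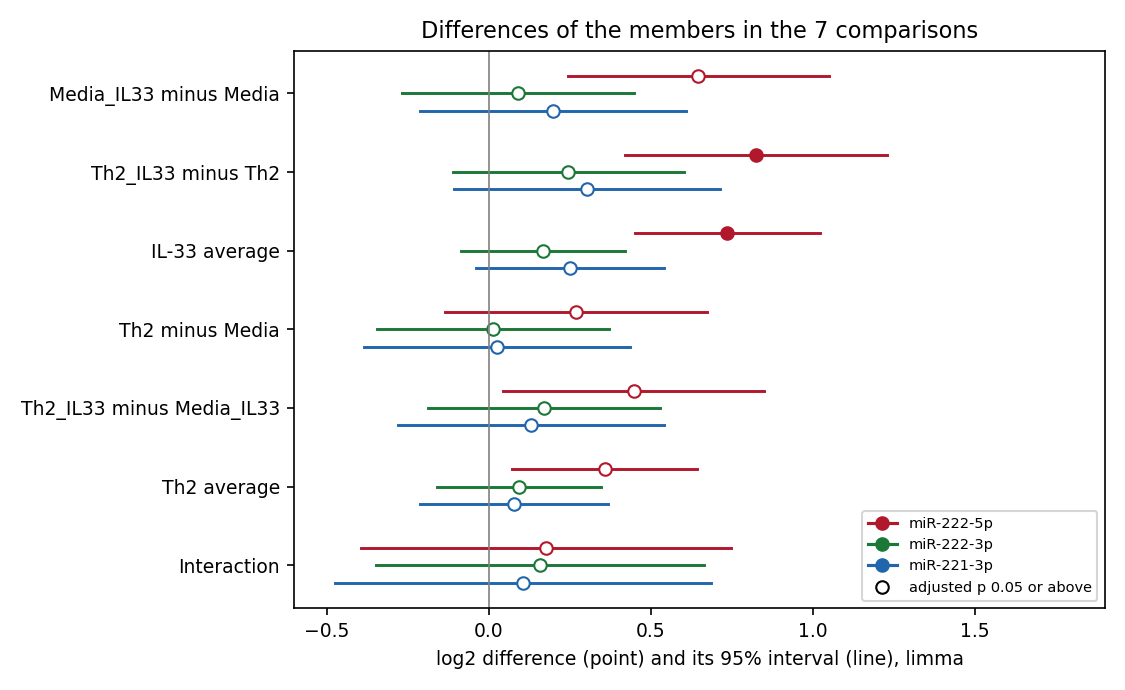
Log2 differences (points) with 95% intervals (lines) of the 3 members in the 7 comparisons, from limma on 16 arrays, with filled points where the adjusted p was under 0.05. The 2 filled points belong to miR-222-5p, at 0.82 in Th2-grown cells and 0.74 in the IL-33 average.

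With the probes summed as described, the balance between the arms of miR-222 changed with IL-33. The average change of 0.57 depended on this processing: it was 0.02 with normexp and 0.08 with the mean of the probes' log2 signals, as given below. The log2 signal of miR-222-5p minus that of miR-222-3p was taken on each array, which removes the scaling of the array. It was -2.00, -2.01, -1.90 and -2.17 in Th2_IL33, against -2.53, -2.44, -2.65 and -2.77 in Th2. In medium-grown cells it was -2.24, -2.27, -2.33 and -2.34 in Media_IL33, against -2.52, -2.95, -3.02 and -2.92 in Media. All 8 arrays with IL-33 lay above all 8 arrays without it. Such an upward separation was seen for 4.17% of the 24 precursors with both arms tested, which is miR-222 alone. Downward separations were not counted. The size of the negative values reflects different probes, so only the change between groups is read.

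The 5p minus 3p value was higher with IL-33 by 0.58 ± 0.12 in Th2-grown cells (adjusted p = 0.00341) and by 0.56 ± 0.12 in medium-grown cells (adjusted p = 0.00466). The average of the 2 was 0.57 ± 0.084 (95% interval 0.39 to 0.75, adjusted p = 0.000137, limma over the 24 precursors), and it was higher in 8 of 8 pairs. In each of these 3 comparisons 8.33% of the precursors were called, which is 2 of 24. The other was miR-21a, whose 5p minus 3p value was lower with IL-33 (IL-33 average -1.19, adjusted p = 3.09e-07). In these 2 hairpins the strand that gained on the other, miR-222-5p and miR-21a-3p, is the partner of the usual guide. For miR-21a the IL-33 average was above 0 for both strands, 1.68 for miR-21a-3p and 0.50 for miR-21a-5p (limma, adjusted p = 0.231 for miR-21a-5p). The lowest Media value of miR-21a-3p was at the floor of 0.0353. Over the 24 precursors the dimmer arm gained on the brighter one in 6, with a median change of -0.063 in the IL-33 average. Over the 24 precursors the IL-33 average of the change in the 5p minus 3p value was above 0 in 13, with a median of 0.01.

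The arm differences in the 3 IL-33 comparisons passed in all 16 refits without 1 array. With the slide as a block they were 0.51 in Th2-grown cells (adjusted p = 0.0436), 0.53 in medium-grown cells (0.00909) and 0.52 in the average (0.00206). Within slide 2 they were 0.75, 0.26 and 0.51 (adjusted p = 0.112, 0.345 and 0.0857), and within slide 1 the medium-grown value was 0.63 (0.019). These calls were lost under 2 of the alternatives: with normexp the average was 0.02 (adjusted p = 0.873), and with the mean of the probes' log2 signals it was 0.08 (0.913). Under normexp with its offset of 50, the median of the probes detected nowhere was 71.5 to 78.5 units an array, while the brightest miR-222-5p probe had 105 to 181. Under the mean of log2 signals, the 2 shorter miR-222-5p probes sat at the floor of 0.0353 on 16 and 15 of the 16 arrays. Whether these levels account for the lost calls was not tested. In the authors' processed table the average was 0.51 and passed, and the medium-grown difference was 0.42 and did not (adjusted p = 0.158).

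**Figure D3:**
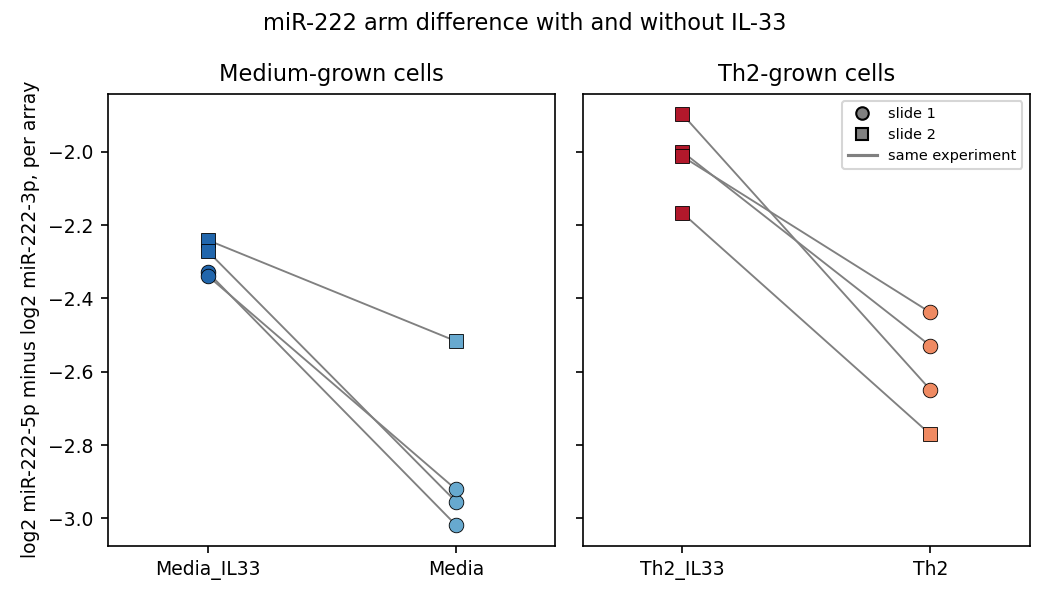
Log2 miR-222-5p minus log2 miR-222-3p on each array (vertical axis), with and without IL-33, in medium-grown and in Th2-grown cells. Lines join arrays of the same experiment, circles are slide 1 and squares slide 2, and the value is higher with IL-33 in all 8 pairs.

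**Figure D4:**
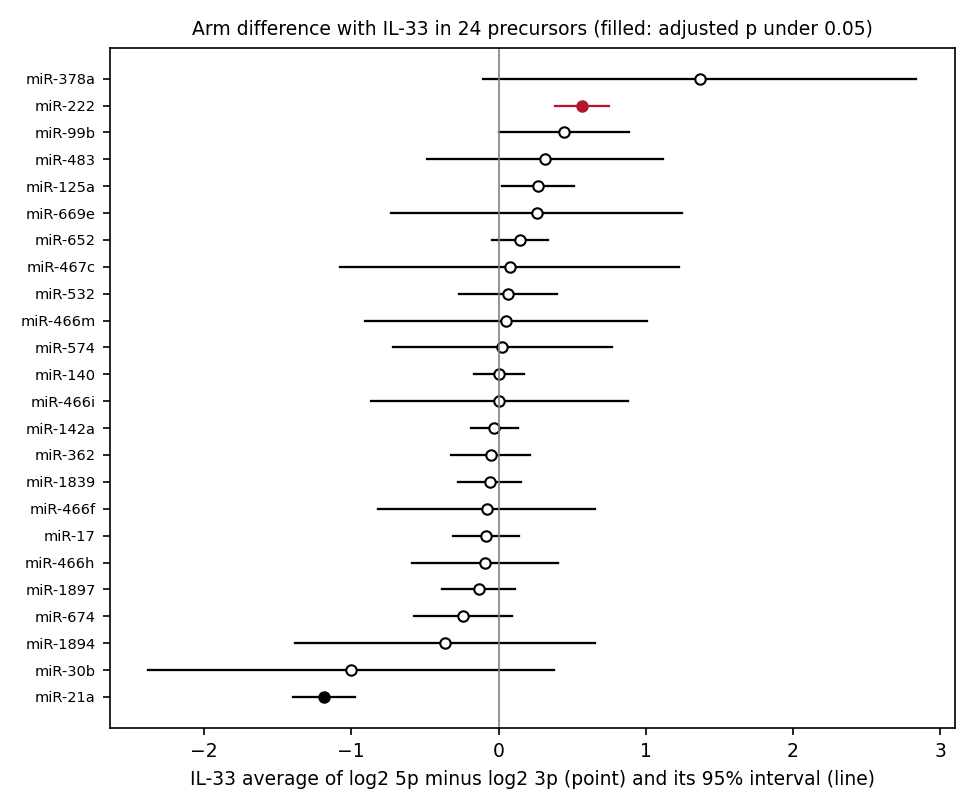
Change of log2 5p minus log2 3p with IL-33, averaged over both growth conditions (points) with 95% intervals (lines), for the 24 precursors with both arms tested. The filled points, with an adjusted p under 0.05, are miR-222 at 0.57 and miR-21a at -1.19.

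No member passed the threshold in a comparison of growth with and without Th2 cytokines. miR-222-5p was 0.45 ± 0.19 higher in Th2_IL33 than in Media_IL33 on the log2 scale (adjusted p = 0.201), with no overlap between the groups, as for 14.3% of the tested miRNAs, and 9.52% were called. Without IL-33 the difference, Th2 minus Media, was 0.27 ± 0.19 (adjusted p = 0.435). The average over both was 0.36 ± 0.13 (adjusted p = 0.0679, limma), higher in 7 of 8 pairs, and 19.9% of the tested miRNAs were called there. It passed without the array Th2 replicate 4 (0.43, adjusted p = 0.0227). With the slide as a block the average was 0.41 (adjusted p = 0.0529) and within slide 2 it was 0.08 (0.759). Th2 minus Media was 0.50 within slide 1 and -0.42 within slide 2 (adjusted p = 0.201 and 0.433), and slide 2 held 1 array of each of these groups. Th2_IL33 minus Media_IL33 was 0.55 with the slide as a block (adjusted p = 0.133). It passed within slide 2 (0.59, adjusted p = 0.0496) and with blocks for slide and experiment together (0.64, 0.0351).

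For the guides, the Th2 average was 0.08 ± 0.14 for miR-221-3p and 0.09 ± 0.12 for miR-222-3p (limma, adjusted p = 0.640 and 0.554). Their 95% intervals were -0.21 to 0.37 and -0.16 to 0.35. The Th2 minus Media differences, 0.03 and 0.01, were the smallest of all comparisons and changed sign with the processing. The miR-222 5p minus 3p value was 0.27 ± 0.084 higher in the Th2 average (adjusted p = 0.0439, with 16.7% of precursors called). The difference was 0.28 ± 0.12 in Th2_IL33 over Media_IL33 and 0.26 ± 0.12 in Th2 over Media, and neither passed (adjusted p = 0.295 and 0.406). The call of the average was lost in 13 of the 16 refits without 1 array (0.24 to 0.27, adjusted p up to 0.102) and stood without Media 1, Th2 4 or Th2_IL33 4. It was 0.24 with the slide as a block (adjusted p = 0.0989) and -0.01 within slide 2 (0.945).

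The IL-33 difference was compared between growth conditions by the interaction, which subtracts the medium-grown difference from the Th2-grown one. It was 0.18 ± 0.27 for miR-222-5p, 0.16 ± 0.24 for miR-222-3p and 0.11 ± 0.27 for miR-221-3p (limma, adjusted p = 0.995 each). The 95% interval for miR-222-5p was -0.39 to 0.75, which does not show that the responses were alike. No tested miRNA passed in limma, and 5 of 231 (2.16%) had an unadjusted p under 0.05. For the arm difference the interaction was 0.02 ± 0.17 (adjusted p = 0.969). For miR-222-5p it was 0.28 with the slide as a block and 0.37 with blocks for slide and experiment (limma, adjusted p = 0.998 and 0.995). Within slide 2, which held 1 Th2 and 1 Media array, it was 1.00. That miR-222-5p passed in Th2-grown cells and not in medium-grown cells is therefore no difference between them that a test has shown.

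By mean relative signal, miR-222-5p was ordered from high to low as Th2_IL33 (0.196), Media_IL33 (0.144), Th2 (0.112) and Media (0.0932). Only the top step, Th2_IL33 above Media_IL33, separates all arrays of neighbouring groups. Th2 and Media overlap, and so do Media_IL33 and Th2, whose ranges were 0.128 to 0.162 in Media_IL33 and 0.0803 to 0.131 in Th2. For miR-221-3p the group means were 2.82 ± 0.365 in Th2_IL33, 2.60 ± 0.530 in Media_IL33, 2.28 ± 0.253 in Th2 and 2.30 ± 0.655 in Media. For miR-222-3p they were 0.795 ± 0.117 in Th2_IL33, 0.706 ± 0.103 in Media_IL33, 0.669 ± 0.0857 in Th2 and 0.669 ± 0.131 in Media (SD, n = 4 each). Every neighbouring pair of groups of the 2 guides overlaps.

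Among all tested miRNAs, those whose log2 signal followed miR-222-5p best over the 16 arrays were miR-146a-5p (Pearson r = 0.917, Spearman rho = 0.932), then miR-155-5p (r = 0.821), miR-21a-3p (0.807), miR-125a-5p (0.780) and miR-146b-5p (0.765). All 5 are in the list of miRNAs induced by NF-kB or Toll-like receptors, a list chosen with earlier results of these data known. miR-146a-5p, which represses the NF-kB adaptors Traf6 and Irak1, had 0.533 ± 0.0798 in Th2_IL33, against 0.287 ± 0.0512 in Th2. It had 0.484 ± 0.0568 in Media_IL33, against 0.231 ± 0.0336 in Media (SD, n = 4 each). The 16 points share the 4 group means and the scaling of each array. With the group means subtracted, the 5 highest for miR-222-5p were miR-378d, miR-1839-3p, miR-210-3p, miR-378a-3p and miR-26a-5p (r = 0.965 to 0.904), and none of the 5 above was among them.

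Closest to miR-221-3p were miR-3081-5p (r = 0.837), miR-1906, miR-1949, miR-222-3p (0.778) and miR-125a-5p, and closest to miR-222-3p were miR-1897-3p (r = 0.844), miR-6366, miR-3098-5p, miR-6360 and miR-345-5p (0.801). With the group means subtracted, the 5 for miR-221-3p were miR-100-5p, miR-16-5p, miR-374c-5p, miR-27b-3p and miR-7a-5p, and the 5 for miR-222-3p were miR-17-5p, miR-494-3p, miR-99b-5p, miR-677-3p and miR-3098-5p. The members correlated with each other at r = 0.778 for the 2 guides, 0.749 for the miR-222 arms and 0.740 for miR-221-3p with miR-222-5p. The median correlation of miR-221-3p with all tested miRNAs was 0.361, so part of such a value is common to most miRNAs on these arrays. With the group means subtracted, the members correlated at 0.726, 0.839 and 0.747 in the same order, and this median was 0.453. There they lay at ranks 22 to 58 among each other's correlates.

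The lists used here were chosen with earlier results of these data known, so their counts are descriptive. The list of NF-kB or Toll-like receptor induced miRNAs has 14 names, of which 9 were tested. Of these 9, 3 were called higher in Th2_IL33 over Th2, 4 in Media_IL33 over Media and 4 in the IL-33 average. Over all 231, 1.73%, 1.73% and 2.16% were called. All 9 had log2 differences above 0 in each comparison, as had 119, 130 and 113 of the 231. The median log2 differences of the 9 were 0.50, 0.59 and 0.53, against 0.0015, 0.023 and -0.0017 over all 231. In the average the 4 were miR-146a-5p (0.99), miR-146b-5p (0.68, adjusted p = 0.0208), miR-155-5p (1.52) and miR-21a-3p (1.68), and miR-222-5p at 0.74 was the only other miRNA called there. The list of proliferation miRNAs, such as miR-17-5p, had 11 tested names. None of the 11 passed in an IL-33 comparison, where 1.73% to 2.16% of all tested miRNAs were called, so few would pass in a list of this size. The median of the IL-33 average was 0.01 for the 11 and -0.0017 over all 231.

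**Figure D5:**
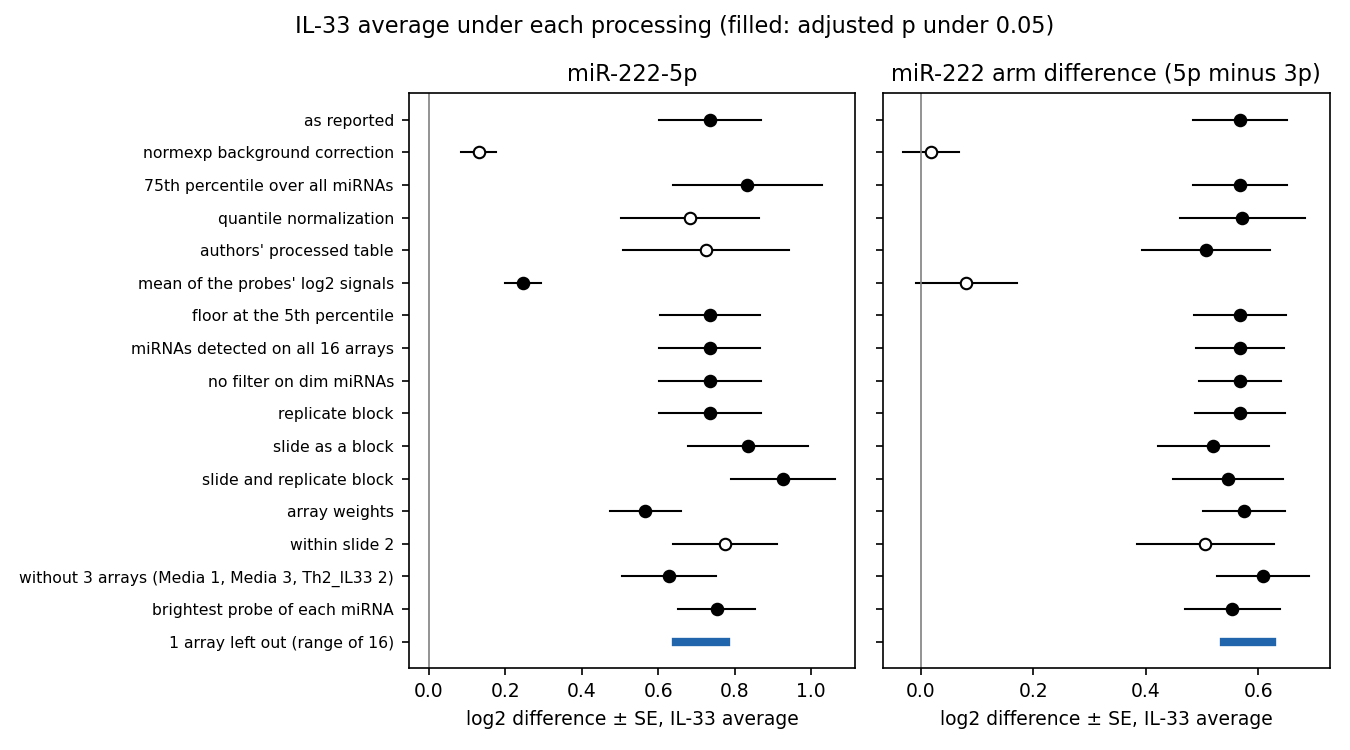
IL-33 average (log2 difference ± SE, horizontal axes) of miR-222-5p and of the miR-222 arm difference under each processing, with filled points where the adjusted p was under 0.05, and a blue bar for the range over the 16 refits without 1 array. Both values stay above 0 throughout, and they are smallest with normexp, at 0.13 and 0.02.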

How the data were processed

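MiRNA levels were read from 16 single-colour (Cy3) Agilent mouse miRNA arrays. Per the file headers, the software was Agilent Feature Extraction 10.7.3.1. The deposited intensity of a spot is its background-subtracted signal. A second deposited source is the authors' processed intensity table for all probes, made with Partek 6.6 and RMA per the submitters' processing notes, with equal medians (0.428) and maxima (114686) in every column. It served as an alternative.

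Control and outlier spots were left out (2040 to 3929 of 49880 miRNA spots an array were outliers), and no spot was saturated. Probe means were summed per miRNA, scaled as described (percentiles of 427 to 654 units), floored at 0.0353 (the 1st percentile of detected signals) and put on the log2 scale. These log2 values were computed from the deposited intensities. Files were read with data.table (version 1.17.8). Under R 4.3.3, limma 3.58.1 fitted 1 mean per group to 16 arrays, with 12 residual degrees of freedom. The arm fit used the 24 precursors with both arms tested. Precision is limited by how many arrays there are: a 4 against 4 difference had a median SE of 0.18. The fit was tested on simulated data with independent noise, which held no slide or experiment differences.

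Per the labels' sample descriptions, each replicate number goes with 1 experiment letter in all 4 groups, so the numbers pair the arrays by experiment. Arrays of the same number correlated in their deviations from the group means at -0.10, -0.07, 0.34 and 0.20 on average for numbers 1 to 4. Named miRNAs were the members, the 5 closest correlates of each, list members with the smallest p, and arm pairs past the threshold. The members and lists were chosen with earlier results of these data known. Alternatives covered background correction, scaling, normalization, the authors' table, probe summary, floor, filters, blocks, array weights and arrays left out. The alternative with the brightest probe of each miRNA was chosen after seeing the data.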

Additional observations from a re-analysis of the deposited data

How the results depend on the processing

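Values here are log2 differences, with M for Media_IL33 minus Media, T for Th2_IL33 minus Th2, A for the IL-33 average, G for Th2 minus Media, H for Th2_IL33 minus Media_IL33, B for the Th2 average, and I for the interaction. A count is of miRNAs past the threshold, against 4 in M, 4 in T, 5 in A, 22 in G, 22 in H, 46 in B and 0 in I as reported. The guides passed in no alternative, and most of their changes of sign were in G, which was 0.03 and 0.01. The cause of a change was not tested.

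Normexp ended the calls of miR-222-5p in T (0.21) and A (0.13) and of the arm difference in M (0.0034), T (0.034), A (0.019) and B (0.11). It let miR-222-5p pass in H (0.22) and B (0.14), put G at -0.047 for miR-221-3p and -0.034 for miR-222-3p, and called 1 miRNA in M, 2 in T and 3 in A. The percentile over all miRNAs ended miR-222-5p in T (0.93), put G at -0.028 for miR-221-3p and -0.040 for miR-222-3p, and called 2 in T and 12 in H. Quantile normalization ended miR-222-5p in T (0.76) and A (0.68) and the arm difference in B (0.11), put miR-221-3p at -0.067 in G, -0.17 in H, -0.12 in B and -0.10 in I, and called 3 in A. The authors' table ended miR-222-5p in T (0.84) and A (0.73) and the arm difference in M (0.42) and B (0.14), put miR-221-3p at -0.17 in G, -0.13 in H and -0.15 in B, and called 2 in T, 3 in A and 14 in H. The mean of the probes' log2 signals ended miR-222-5p in T (0.27) and the arm difference in M (0.13), T (0.028), A (0.081) and B (0.033), and put the arm difference at -0.020 in H and -0.11 in I. The brightest probe alone, an alternative chosen after seeing the data, let miR-222-5p pass in M (0.71, adjusted p = 0.00899). It put G at -0.10 for miR-221-3p and -0.084 for miR-222-3p, B at -0.056 and -0.022 for them, H at -0.015 for miR-221-3p, and the arm difference at -0.038 in I, and called 8 in A.

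Testing only miRNAs detected on all 16 arrays, a smaller set, called 1 in M, 2 in T, 2 in A and 14 in H. With no filter, over all 1247 miRNAs, miR-222-5p in T (0.82, adjusted p = 0.254) and the arm difference in B (0.27, adjusted p = 0.061) were not called, with 14 called in H and 25 in B. A floor at the 5th percentile changed no call of a member or of the arm difference. Array weights let miR-222-5p pass in H (0.50) and B (0.37), put M at -0.11 and -0.15 and G at -0.16 and -0.093 for miR-221-3p and miR-222-3p, and the arm difference at -0.018 in I. They called 64 in G, 71 in H, 98 in B and 1 in I.

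The replicate block, which pairs arrays of the same experiment, ended miR-222-5p in T (0.82, adjusted p = 0.0578) and changed no other call of a member or of the arm difference. The slide block ended the arm difference in B (0.24) and put it at -0.028 in I. With the slide and replicate block together, miR-222-5p passed in M (0.74), H (0.64) and B (0.45), the arm difference in B (0.25) did not and in I was -0.0016, and 37 were called in H and 71 in B. Within slide 1, 2 were called in M. Within slide 2, which leaves 8 arrays, miR-222-5p did not pass in T (1.28) and A (0.77) and passed in H (0.59), and its value in G was -0.42. The arm difference did not pass there in M (0.26), T (0.75) and A (0.51), and was -0.25 in G and -0.0087 in B. miR-221-3p was at -0.19 in M, -0.40 in G and -0.040 in B and miR-222-3p at -0.16 in G, with 0 called in M and T, 3 in A, 4 in G and 10 in B. Without Media 1, Media 3 and Th2_IL33 2 together, miR-222-3p was at -0.15 in M, -0.22 in G and -0.056 in B, miR-221-3p at -0.055 in G and the arm difference at -0.067 in I, with 2 called in M.

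Leaving out 1 array at a time, miR-222-5p in T lay between 0.67 and 0.91 and in B between 0.27 and 0.43. miR-222-3p in M lay between -0.033 and 0.18 and in G between -0.11 and 0.11, and miR-221-3p in G between -0.094 and 0.18 and in I between -0.054 and 0.24. The arm difference lay between 0.20 and 0.37 in G (past the threshold without Media 1, adjusted p = 0.0335), 0.24 and 0.32 in B, and -0.092 and 0.076 in I. Counts lay between 4 and 8 in A (8 without Media 4) and 19 and 36 in H (36 without Media 3).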
